A study of Rattus norvegicus with 12 samples.

Results

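A set of 9 low neural genes was followed through 12 RNA-seq libraries of ND7/23 cells: *Snap25*, *Syp* and *Sh3gl2* of the presynaptic terminal, *Gap43* of the growing axon, *Nrgn*, *Vsnl1* and *Sez6* of neuronal signalling, and *Mbp* and *Prr18*, which are known from myelinating glia. They were 9 of the 21556 genes in the expression table. They were selected on these same data, as low neuronal and glial genes seen higher in libraries with Wnt3a, so their values in Wnt3a against control are a description and carry no test. Whether the libraries with both agents were also looked at when the genes were chosen is not known. ND7/23 is a hybrid line made by fusing rat dorsal root ganglion neurons with mouse N18Tg2 neuroblastoma cells, and it is used as a model of sensory neurons. Cells received no agent (control), 100 μM menthol, an agonist of the cold receptor TRPM8, 100 ng/ml Wnt3a, a Wnt ligand, or both, each for 6 h, with 3 libraries per group. The methods speak of biological duplication of the samples without saying that the 3 libraries of a group came from separate cultures, so the p-values measure only the spread between these libraries, which may be technical. The reads were aligned to the rat genome only, so transcripts of the mouse and rat copies of a gene cannot be told apart.

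Neurons release transmitter when synaptic vesicles fuse with the plasma membrane through a bundle of SNARE proteins, to which SNAP25 contributes. Synaptophysin is an abundant membrane protein of these vesicles, and endophilins bend the membrane when vesicles are taken up again. GAP43 and neurogranin both bind calmodulin through an IQ motif, on the presynaptic and postsynaptic side respectively, and myelin basic protein compacts the myelin sheath of oligodendrocytes and Schwann cells. Wnt ligands of this class stabilise β-catenin, which acts with TCF and LEF factors on target genes such as *Axin2*.

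The stretch of 250 bases before the transcription start is shown for *Syp*, *Sh3gl2* and *Nrgn*, which had 5.01, 7.01 and 3.05 times the pooled reads with both agents as with menthol, and for *Vsnl1*, which had 1.07 times, because TCF and LEF sites were among the motifs looked for there. The sequences are from RefSeq (build GRCr8), 5′ to 3′ on the gene's strand, and capitals mark GC boxes (GGGCGG or its reverse complement CCGCCC) and, in *Sh3gl2*, the cAMP response element TGACGTCA.
Syp (chrX:17536450-17536699, minus strand): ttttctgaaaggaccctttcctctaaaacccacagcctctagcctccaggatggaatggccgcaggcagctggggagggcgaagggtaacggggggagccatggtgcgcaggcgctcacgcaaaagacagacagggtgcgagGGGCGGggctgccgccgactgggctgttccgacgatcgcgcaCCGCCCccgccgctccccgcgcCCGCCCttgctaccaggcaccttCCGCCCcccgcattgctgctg
Sh3gl2 (chr5:104699020-104699269, plus strand): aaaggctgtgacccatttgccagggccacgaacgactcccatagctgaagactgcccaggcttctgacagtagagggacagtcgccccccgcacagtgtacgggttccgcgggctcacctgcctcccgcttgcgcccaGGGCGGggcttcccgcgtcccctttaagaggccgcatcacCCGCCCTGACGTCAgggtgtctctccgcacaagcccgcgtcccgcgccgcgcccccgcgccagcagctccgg
Nrgn (chr8:45452418-45452667, minus strand): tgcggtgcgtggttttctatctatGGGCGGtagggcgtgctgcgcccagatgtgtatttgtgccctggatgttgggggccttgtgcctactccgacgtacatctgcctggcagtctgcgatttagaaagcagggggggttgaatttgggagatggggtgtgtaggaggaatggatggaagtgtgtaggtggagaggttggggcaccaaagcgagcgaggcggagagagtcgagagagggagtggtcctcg
Vsnl1 (chr6:39878557-39878806, minus strand): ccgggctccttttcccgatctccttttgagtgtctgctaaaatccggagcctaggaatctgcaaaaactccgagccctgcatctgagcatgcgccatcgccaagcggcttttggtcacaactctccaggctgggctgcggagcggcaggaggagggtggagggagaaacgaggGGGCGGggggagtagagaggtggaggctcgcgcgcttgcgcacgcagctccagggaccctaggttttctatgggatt

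In these windows the TCF and LEF letters CTTTGAT and CTTTGTT, read on both strands, were found in 0 of the 8 windows of the 6 genes that matched the RefSeq promoter table (*Mbp* and *Prr18* with 2 starts each, *Nrgn*, *Vsnl1*, *Syp* and *Sh3gl2*). Over all 33469 promoters of the table they were found in 3.15% and 5.14%. GC boxes were found in 7 of the 8 windows, all but 1 of those of *Prr18*, and in 30.5% of all promoters. In *Syp* there were 4 of them, and in *Sh3gl2* the GC box from 72 to 67 bases before the start lies directly before the cAMP response element from 66 to 59 bases before it, without overlap. The cAMP response element was found in 1 of the 8 windows and in 1.59% of all promoters. The 2 parts of the REST site, TTCAGCACC and GGACAGCGC, were found in 0 of the 8, against 0.305% and 0.338% of all promoters. G and C made up 68.0% of the *Syp* window, 69.2% of that of *Sh3gl2*, 58.0% of that of *Nrgn*, 60.8% of that of *Vsnl1*, 62.0% and 58.8% of those of *Mbp* and 42.8% and 65.6% of those of *Prr18*, against a median of 51.2% over all promoters. A missing match says only that these letters are not in this stretch. *Snap25*, *Gap43* and *Sez6* were not analysed here for sequence.

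The reads behind each value could be recovered whole from the deposited FPKM (fragments divided by gene length and by library depth) for all 21556 genes. The libraries held 36920743 to 38842283 reads on genes, and the deepest had 1.052 times the reads of the shallowest, so read counts of 1 gene can be compared directly between libraries. All 9 genes were scarce. Over the 12 libraries together, *Vsnl1* had 718 reads, *Snap25* 483, *Mbp* 278, *Nrgn* 109, *Syp* 61, *Gap43* 58, *Sh3gl2* 19, *Prr18* 17 and *Sez6* 14. Counts this low carry a large counting error, and a gene with fewer reads can come from fewer cells that express it or from less RNA per cell, which cannot be told apart in bulk RNA. Levels in FPKM, which are per length, placed *Vsnl1* first and *Snap25* next in the control, menthol and Wnt3a groups. With both agents the means of *Snap25* (0.863 ± 0.0668 FPKM, SD, n = 3) and *Vsnl1* (0.861 ± 0.443) lay within the spread of the libraries. *Axin2*, the check of the Wnt3a label, had 927 to 1085 reads in the 6 libraries without Wnt3a. In the 6 libraries with Wnt3a it had 1346 to 1804, so the labelled groups did not overlap.

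**Figure D1:**
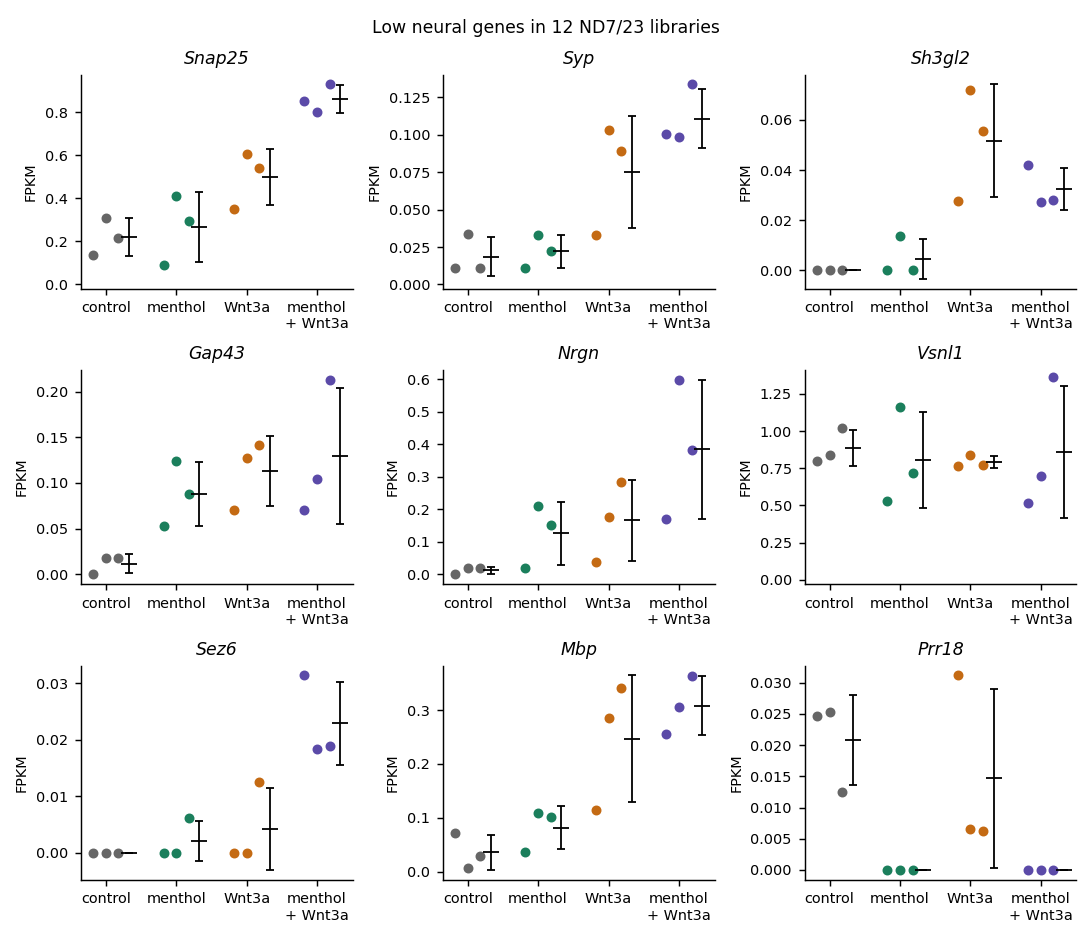
FPKM (vertical axes, each with its own range) of the 9 low neural genes in each of the 12 libraries (points) for the 4 groups; the black line and bars beside the points give the group mean and SD (n = 3), and bars reach below 0 where the SD exceeds the mean. *Snap25*, *Mbp* and *Syp* lie higher in the libraries with both agents than in those with menthol alone, *Vsnl1* overlaps between all groups, and *Prr18* is at 0 in the 6 libraries with menthol.

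Of the presynaptic genes, *Snap25*, the SNARE protein of the plasma membrane, gave the clearest values. It had 12, 27 and 19 reads in the control libraries, 8, 36 and 26 under menthol, 31, 51 and 47 under Wnt3a, and 74, 71 and 81 under both agents. The 3 libraries with Wnt3a lay above the 3 controls, and the 3 with both agents lay above the 9 others. The pooled reads with Wnt3a were 2.26 times those of control (95% interval for counting error 1.65 to 3.14), a contrast that the choice of genes used. With both agents they were 3.23 times those with menthol (2.46 to 4.29) and 1.73 times those with Wnt3a alone (1.39 to 2.17). As a difference of log2(FPKM + 0.1), a scale that shrinks the changes of scarce genes, *Snap25* was 1.5 higher with both agents than with menthol, with an SE of 0.319, and limma gave an adjusted p of 0.207 over all 14374 tested genes. With limma voom on the recovered reads the difference was 1.91 (SE 0.398, adjusted p = 0.0225), and over all alternatives the adjusted p ran from 0.0225 to 0.462, so the call depended on the test.

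*Syp*, which encodes synaptophysin, had 1, 3 and 1 reads in the control libraries, 1, 3 and 2 under menthol, 3, 9 and 8 under Wnt3a, and 9, 9 and 12 under both agents. The libraries with both agents lay above the 3 with menthol, whereas 1 Wnt3a library equalled the highest control in reads. The pooled reads were 5.01 times as many with both agents as with menthol (2.05 to 14.7), and the log2 difference was 0.79 (SE 0.243, limma adjusted p = 0.477). *Sh3gl2*, which encodes endophilin A1, had 0 reads in the 3 controls, 0, 1 and 0 under menthol, 2, 5 and 4 under Wnt3a, and 3, 2 and 2 under both agents. It was thus detected in 6 of 6 libraries with Wnt3a and in 1 of 6 without. With 11 reads under Wnt3a against 0 in control, the lower 95% limit of the ratio for counting error was 2.55. With both agents there were 7.01 times the reads with menthol, with an interval from 0.9 to 316.0 that includes equal levels, since menthol had 1 read.

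Among the growth and signalling genes, *Gap43*, the growth cone protein, was also higher under menthol alone. Its reads were 0, 1 and 1 in control, 3, 7 and 5 under menthol, 4, 7 and 8 under Wnt3a, and 4, 6 and 12 under both agents. All 3 menthol libraries and all 3 Wnt3a libraries lay above control, and the libraries with both agents overlapped those with either agent alone. The pooled ratio was 7.54 (1.75 to 67.9) for menthol to control, 9.67 (2.33 to 85.6) for Wnt3a to control, and 1.47 (0.728 to 3.04) for both agents to menthol, with a log2 difference of 0.26 (SE 0.274, limma adjusted p = 0.944). The first pair of ratios share the control libraries with their 2 reads.

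*Nrgn*, which encodes neurogranin, had 0, 1 and 1 reads in control, 1, 11 and 8 under menthol, 2, 9 and 15 under Wnt3a, and 9, 32 and 20 under both agents. The lowest library with both agents fell between the menthol libraries, so these groups overlapped. The pooled reads with both agents were 3.05 times those with menthol (1.82 to 5.34) and the log2 difference was 1.1 (SE 0.44, limma adjusted p = 0.664). *Sez6*, a membrane protein of neurons with a role in dendrites, had 0 reads in the 3 controls, 0, 0 and 1 under menthol, 0, 0 and 2 under Wnt3a, and 5, 3 and 3 under both agents. Its 14 reads therefore lay mostly in the libraries with both agents, and Wnt3a alone and control were both at or under the floor of 3 reads, so no fold is given. Both agents had 11 times the reads of menthol (1.6 to 474.0), a ratio to 1 read, and the fit with no minimum on FPKM gave a log2 difference of 0.27 (SE 0.061, limma adjusted p = 0.374).

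*Vsnl1*, a neuronal calcium sensor of the visinin-like family, went against the label of the set. It had 58, 60 and 74 reads in control, 38, 83 and 52 under menthol, 55, 58 and 55 under Wnt3a, and 37, 51 and 97 under both agents. The 4 groups overlapped, and Wnt3a had 0.89 times the reads of control (0.72 to 1.1). With both agents there were 1.07 times the reads with menthol (0.865 to 1.32), and the log2 difference was 0.05 (SE 0.285, limma adjusted p = 0.988). *Vsnl1* alone held more reads than any other of the 9 genes, so a sum over the set moves with it.

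Of the glial genes, *Mbp* had 10, 1 and 4 reads in control, 5, 15 and 14 under menthol, 16, 38 and 47 under Wnt3a, and 35, 43 and 50 under both agents. Every Wnt3a library lay above every control and every library with both agents above every one with menthol. The pooled ratio was 6.85 (3.96 to 12.7) for Wnt3a to control and 3.77 (2.56 to 5.68) for both agents to menthol, where the log2 difference was 1.18 (SE 0.297, limma adjusted p = 0.329). *Prr18*, a proline-rich protein found in oligodendrocyte-rich tissue, was not higher with Wnt3a. It had 4, 4 and 2 reads in control and 5, 1 and 1 under Wnt3a, and 0 in each of the 6 libraries under menthol, with or without Wnt3a. The ratio of Wnt3a to control was 0.712 (0.23 to 2.07), which includes equal levels. With 0 reads under menthol, the upper 95% limit of the ratio for counting error was 0.448 for menthol to control and 0.686 for both agents to Wnt3a alone.

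**Figure D2:**
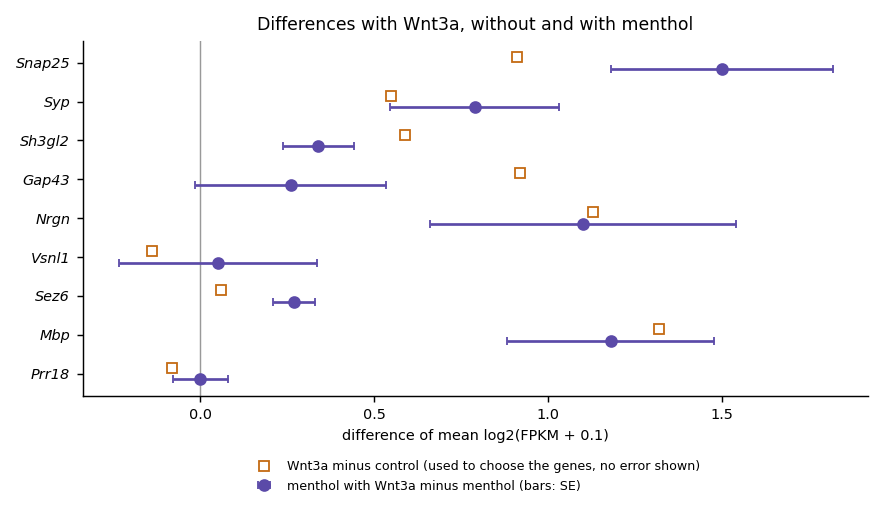
Difference of the mean log2(FPKM + 0.1) (horizontal axis) for each gene: open squares, Wnt3a minus control, the contrast used to choose the genes; filled circles, menthol with Wnt3a minus menthol, with bars of 1 SE (3 libraries per group; the values of *Sh3gl2*, *Sez6* and *Prr18* are from the fit with no minimum). *Snap25* is furthest to the right with both agents at 1.5, and *Vsnl1* and *Prr18* lie near 0 in both contrasts.

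Set against each other, 6 of the 9 genes passed the minimum of a mean of 0.05 FPKM over the 12 libraries and entered the test of both agents against menthol (*Snap25*, *Gap43*, *Mbp*, *Nrgn*, *Vsnl1* and *Syp*). *Syp* passed this minimum only through the groups with Wnt3a, with means of 0.0184 FPKM in control and 0.0221 under menthol, so the counts over the 6 are given beside the shares of all genes as a description. Of these 6, 0 passed limma's adjusted p under 0.05 with more than 2-fold difference, against 0.00696% of all 14374 tested genes, which is 1 gene, *Upk2*, a urothelial membrane protein. At an unadjusted p under 0.05 in the same limma fit, 4 of the 6 were higher (*Snap25*, *Mbp*, *Nrgn* and *Syp*), beside 3.33% of all tested genes. *Syp* is among the 4, and the choice of genes may have used these libraries, so nothing is read from this count. With voom 1 of the 6 was called, *Snap25*, against 0.0278% of all tested genes. Among the other genes voom called were *RT1-A1* and *Myh7*. All 3 libraries with both agents exceeded all 3 with menthol in 3 of the 6 tested genes (*Snap25*, *Mbp* and *Syp*). This held for 5.96% of all tested genes and 5.88% of the tested genes under 0.5 FPKM. With *Sez6* and *Sh3gl2*, which were not tested, the count was 5 of all 9 genes. In Wnt3a against control, which the choice used, all 3 libraries were higher in 4 of the 6 tested genes (*Snap25*, *Gap43*, *Mbp* and *Nrgn*). The share of all tested genes was 9.48%. With *Sh3gl2*, which was not tested, the count was 5 of the 9, and nothing is read from it.

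**Figure D3:**
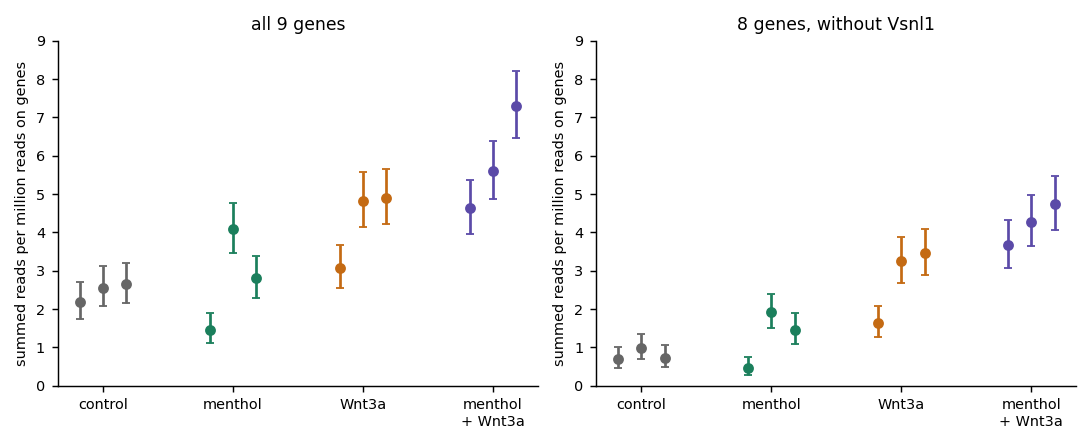
Summed reads per 1000000 reads on genes (vertical axis, from 0) of the 9 genes (left) and of the 8 genes without *Vsnl1* (right) in each library; bars are 95% intervals for counting error. Without *Vsnl1* the 3 libraries with both agents lie above the 9 others, and 1 Wnt3a library lies within the range of the menthol libraries.

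Summed over the 9 genes there were 85 to 102 reads in the control libraries, 56 to 156 under menthol, 118 to 187 under Wnt3a and 176 to 277 under both agents. In RPM, reads per 1000000 reads on genes, the sum was 2.46 ± 0.238 (SD, n = 3) in control, 2.78 ± 1.31 under menthol, 4.26 ± 1.04 under Wnt3a and 5.83 ± 1.35 under both. Both agents had 2.1 times the sum with menthol (1.83 to 2.4), and 3.3 times (2.74 to 4.0) when *Vsnl1* was left out; an exact permutation test of 3 against 3 libraries cannot go below 0.1, so none is given. Wnt3a had 1.73 times the sum of control, and 3.48 times without *Vsnl1*. The libraries did not contribute evenly. Replicate 3 with both agents held the highest FPKM of 5 of the 9 genes and was among the top 3 libraries for 7, and menthol replicate 1 had the lowest sum. Without menthol replicate 2, the highest of its group, the ratio of both agents to menthol was 2.73.

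Across the 12 libraries, the correlation of each gene with the mean standardised profile of the set, of which it is itself a part, was 0.956 for *Syp*, 0.953 for *Snap25*, 0.937 for *Mbp*, 0.865 for *Nrgn*, 0.831 for *Gap43*, 0.811 for *Sh3gl2*, 0.672 for *Sez6*, 0.292 for *Vsnl1* and −0.383 for *Prr18*. These correlations describe the set and share the libraries and the choice of genes. Among genes outside it, the 10 whose log2 values were most like the mean profile included *Wrap73* (r = 0.946), *Axin2* (0.937), *LOC102553529* (0.919), *Gba2* (0.9), *Trim47* (0.9), *P2ry2* (0.895), *Zfp503* (0.893), *LOC100360380* (0.889) and *Ttc3* (0.883). *Axin2*, the intracellular Wnt feedback inhibitor, was 0.72 higher on the log2 scale with both agents than with menthol (SE 0.0725, limma adjusted p = 0.00135).

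The relatives of these genes that ND7/23 cells express at high levels had differences close to 0. In the SNAP25 family, *Snap23* had a mean of 13.3 FPKM, *Snap29* 19.6 and *Snap47* 3.89. Their log2 differences between both agents and menthol were 0.05, 0.01 and −0.09. In the synaptophysin family, *Sypl1* was at 76.6 FPKM (0.06), *Syngr2* at 92.4 (−0.02), *Syngr1* at 14.3 (0.02) and *Syngr4* at 0.142 (−0.01). The scarce *Synpr*, *Sypl2* and *Syngr3* had at most 6 reads in a library. *Syngr3* had 6, 2 and 3 reads in control, 0, 0 and 0 under menthol, 0, 6 and 0 under Wnt3a, and 4, 5 and 2 under both agents. Of the endophilins, *Sh3gl1* was at 62.8 FPKM (−0.02), *Sh3glb1* at 40.9 (0.03), *Sh3glb2* at 8.46 (0.03) and *Sh3gl3* at 1.21 (−0.03). These 3 families had 11 tested members and 0 passed limma's adjusted p of 0.05.

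Of the visinin-like sensors, *Hpcal1* was at 32.7 FPKM (log2 difference 0.00), *Ncs1* at 8.92 (−0.03), *Ncald* at 0.432 (0.05) and *Hpca* at 0.0512 (0.23), and *Hpcal4* had at most 5 reads in a library. The calmodulins *Calm2* and *Calm3* differed by −0.01 and 0.01, and the calmodulin-binding proteins *Basp1*, *Marcks*, *Marcksl1* and *Pcp4l1* by −0.07, −0.06, 0.11 and 0.08. *Pcp4*, a small IQ-motif protein of Purkinje cells, was the scarce one of this list. It had 1, 0 and 1 reads in control, 0, 0 and 6 under menthol, 1, 2 and 1 under Wnt3a, and 9, 8 and 17 under both agents, a log2 difference of 1.71 (SE 0.399, limma adjusted p = 0.255). In the SEZ6 family, *Sez6l2* had 4, 1 and 3 reads with menthol and 9, 6 and 10 with both agents, and *Sez6l* had at most 1. None of the 12 tested visinin-like and calmodulin-binding genes passed, and the SEZ6 family had no tested member.

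**Figure D4:**
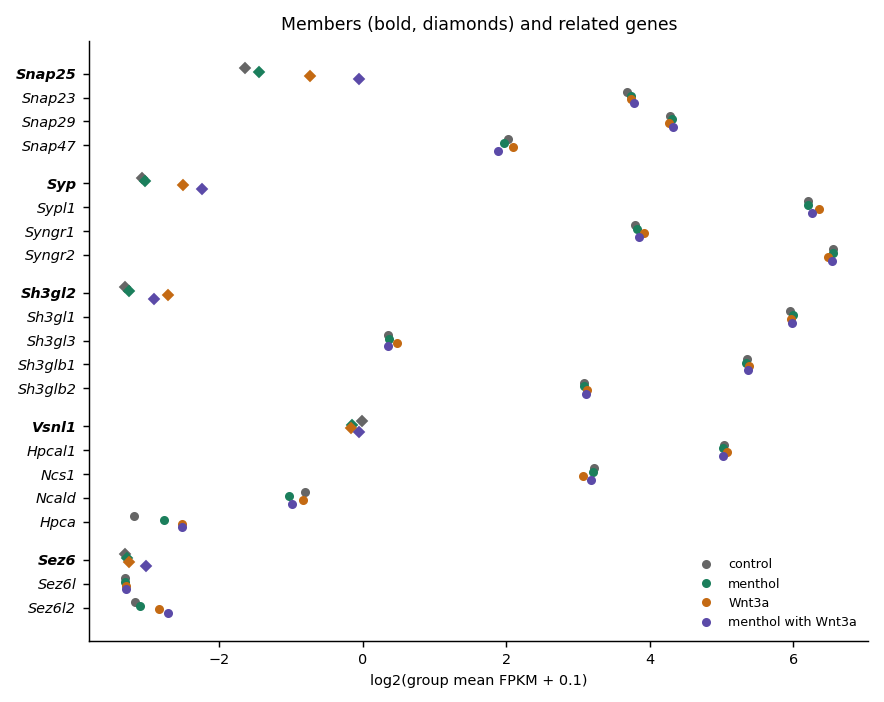
Group mean level as log2(FPKM + 0.1) (horizontal axis) of 5 of the genes (bold, diamonds) and of related genes (circles), coloured by group. *Snap25*, *Syp*, *Sh3gl2* and *Sez6* sit at the low end, whereas *Snap23*, *Sypl1*, *Syngr2* and *Sh3gl1* lie at higher levels with the 4 groups close together.

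The cell type lists were read in both agents against menthol at limma's adjusted p under 0.05 with no threshold on the fold, which 0.0765% of all tested genes passed. Of the general neuronal list 0 of 7 tested genes passed, of the SNARE and synaptic vesicle list 0 of 20, of the forebrain neuron list 0 of 12, of the oligodendrocyte list 0 of 6, of the Schwann cell list 0 of 4, of the astrocyte list 0 of 11, of the microglia list 0 of 6, of the muscle list 0 of 14, of the liver list 0 of 2 and of the red blood cell list 0 of 3. Of the sensory neuron list 1 of 5 passed, *Isl1*, a homeodomain factor of sensory neurons (log2 difference 0.59, SE 0.0733, limma adjusted p = 0.00999), and of the Wnt feedback list 1 of 8, *Axin2*. Among the most abundant genes of the neuronal lists, log2 differences were 0.08 for *Eno2* at 163.0 FPKM, −0.01 for *Thy1* at 141.0, 0.04 for *Napa* at 66.8 and −0.02 for *Ncdn* at 25.4. In the glial lists they were −0.10 for *Clu* at 332.0 FPKM, 0.11 for *Pmp22* at 44.2 and 0.02 for *Cnp* at 15.3. The sensory neuron list itself was mixed: *Runx1* was at 32.2 FPKM and *Isl1* at 13.2, *Avil* had 37 to 78 reads per library, *P2rx3* 16 to 57 and *Trpv1* 8 to 43, and 5 of the 16 genes, *Scn10a*, *Scn11a* and *Calcb* among them, had at most 3 reads in every library.

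When only the scarce genes of each list were summed, those under a mean of 0.5 FPKM, several neural lists were higher with Wnt3a. This subset was chosen after the values were seen and has no test. The 10 scarce general neuronal genes had 14 to 20 reads per library in control, 18 to 25 under menthol, 18 to 39 under Wnt3a and 30 to 44 under both agents. The 9 scarce SNARE and vesicle genes had 25 to 37, 18 to 35, 40 to 71 and 54 to 58, and the 18 scarce forebrain neuron genes 39 to 51, 52 to 72, 69 to 132 and 93 to 147. In these neural lists the libraries with both agents lay above those with menthol without overlap. The 7 scarce astrocyte genes had 25 to 42, 21 to 39, 38 to 51 and 42 to 62 reads in the same order, also without overlap between both agents and menthol. The 6 scarce Wnt feedback genes did not overlap either, with 95 to 142 reads under menthol and 155 to 188 under both agents. Over all 10105 genes under 0.5 FPKM the sums overlapped, at 87021 to 91243 and 90454 to 92772 reads.

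Other lists moved differently. The 13 scarce oligodendrocyte genes had 60 to 75 reads in control, 65 to 83 under menthol, 52 to 87 under Wnt3a and 65 to 90 under both agents, and the 8 scarce microglia genes 14 to 29, 5 to 23, 12 to 32 and 19 to 24, so these groups overlapped. *Sox10*, the defining factor of the oligodendrocyte and Schwann lineages, had at most 1 read in any library. The 14 scarce sensory neuron genes had 78 to 165, 121 to 137, 118 to 175 and 84 to 132 reads.

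Markers of tissues outside the nervous system also differed between the groups. The 15 scarce muscle genes had 61 to 119 reads in control, 216 to 327 under menthol, 124 to 227 under Wnt3a and 69 to 247 under both agents, where replicate 3, the library with the highest values of the set, was the highest of its group. The 8 liver genes had 10 to 14, 9 to 26, 11 to 23 and 29 to 34 reads, and the 7 red blood cell genes 7 to 34, 10 to 26, 1 to 7 and 11 to 28. The liver genes thus were higher with both agents than with menthol, and the muscle genes were not. The part of RNA from other cells or tissues in the values of the 9 genes was not tested.

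**Figure D5:**
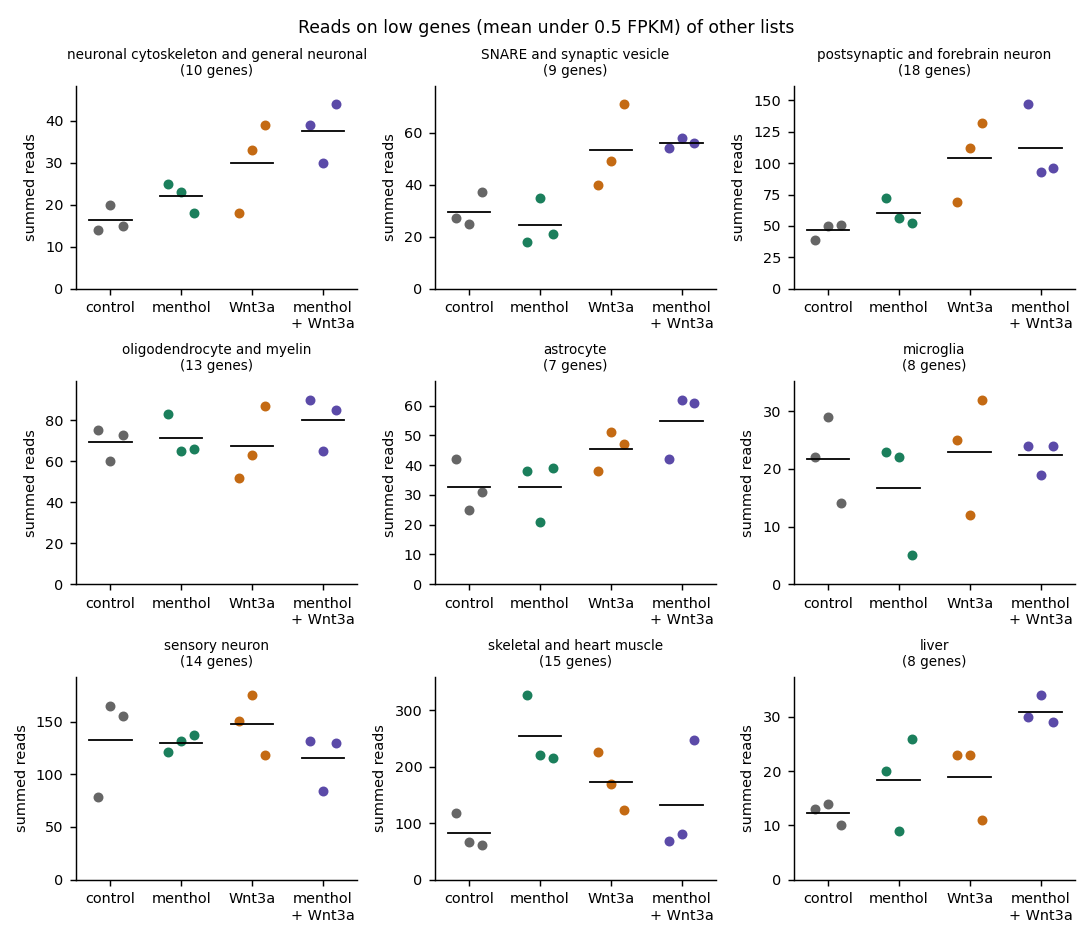
Summed reads per library (vertical axes, from 0, each with its own range) on the genes of 9 other lists whose mean was under 0.5 FPKM; points are libraries and lines group means (n = 3). The 3 neuronal panels in the top row and the liver panel are higher with both agents than with menthol, whereas the muscle panel is highest with menthol, at 216 to 327 reads.

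By the gene annotation in the same table, 4 of the 9 genes carried the term presynapse (*Snap25*, *Gap43*, *Syp* and *Sh3gl2*), against 1.6% of the 16293 genes with terms, 5 neuronal cell body (*Snap25*, *Mbp*, *Nrgn*, *Sez6* and *Sh3gl2*), against 3.76%, and 3 calmodulin binding (*Gap43*, *Mbp* and *Nrgn*), against 1.03%. These shares describe a set that was chosen as neural. Of the 3 calmodulin binders, *Mbp* and *Nrgn* had pooled ratios of both agents to menthol of 3.77 and 3.05, with intervals above 1, and the interval of *Gap43* included 1.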

How the data were processed

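The 12 libraries were grouped by the GEO labels. By the study's methods, the authors extracted RNA with TRIzol, prepared libraries with a VAHTS Universal V6 kit, used fastp for filtering, HISAT for alignment and HTSeq-count for counting, and computed the deposited FPKM values; the submitters' processing notes name build mRatBN7.2, R 3.2.0 and DESeq2. Tool versions other than that of R, and strand, are not given in the sources used here.

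Reads were recovered from the step sizes of the deposited FPKM (whole within 0.0001 for 100.0% of genes; 36920743 to 38842283 per library). limma 3.58.1 (R 4.3.3) with a mean-variance trend was fitted to log2(FPKM + 0.1) of the 14374 genes with a mean of at least 0.05 FPKM, over 4 groups, without a block. P-values were adjusted by Benjamini-Hochberg, and genes called at an adjusted p under 0.05 and over 2-fold. The scripts were tested on simulated data. Ratios of pooled reads have exact 95% intervals, which cover counting error only. No fold is given where both groups had 3 reads or fewer.

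The genes and lists were chosen with earlier results of these data known. Named were all 9 genes, the small families, genes of other lists by level or by passing the test, the 10 genes most like the set, *Axin2* and the called genes; exceptions are stated, and a few genes that this rule names are not reported here. The planned count models were left out because the deposited unit is FPKM, although the recovered reads would have allowed them. In their place limma voom on the recovered reads was added after the data were seen. Promoters were matched by gene identifier.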

Additional observations from a re-analysis of the deposited data

How the results depend on the processing

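Of the 6 tested genes, limma called 0 in both agents against menthol (4 at an unadjusted p under 0.05), and 1, *Snap25*, with voom on recovered reads, an alternative chosen after the data were seen; voom with no minimum on FPKM called 0. The replicate block gave 0 calls with limma and 1 with voom; the numbers do not pair the libraries (18 same-number pairs, correlation −0.041 to 0.05), so this is a shared number only. Pseudocounts of 0.01 and 1, no minimum, median centring and fitting only the 2 groups also gave 0. Leaving out 1 library at a time gave 0 to 0 calls. Of the 6 genes, 6 had a higher mean with both agents than with menthol, beside 7524 of all 14374 tested genes. Leaving out a library gave 5 to 6, and a minimum of 0.5 FPKM left 1 gene, *Vsnl1*, because that fit held no other. For Wnt3a against control 5 of 6 were higher, beside 7473 of all 14374 tested genes, and 5 to 5 without a library. The ratio of summed reads of both agents to menthol was 2.1, 3.3 without *Vsnl1*, and 1.69 to 2.73 without a library (2.73 without menthol replicate 2); that of Wnt3a to control was 1.73, 3.49 as a mean of libraries without *Vsnl1*, and 1.6 to 1.98. *Vsnl1* had the most reads, which is why leaving it out moved both.

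The planned edgeR and DESeq2 fits and the TMM-scaled ratios were left out because the deposited values are FPKM, although the recovered reads would have allowed them. On the recovered reads, limma voom and median-of-ratios scaling were used in their place. Counts of 0 to 97 reads per library limit every value.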
